A study of Mus musculus with 5 samples.

Results

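Expression of 10 genes known from the secretory cells of the oviduct was followed in bulk RNA sequencing of sorted oviductal stromal cells: Ovgp1, Muc1, Pax8, Pax2, Sox17, Wfdc2, Slpi, Lcn2, Ltf and Clu. They were taken by name from the deposited table, and 10 of 10 were found among its 23857 genes. RNA came from YFP-positive cells of the fallopian tube (oviduct) of 5 young adult female mice, with 1 library per mouse. Control mice 2 and 3 had the genotype Pdgfra-Cre;R26Y, and the knockout-labelled mice 1, 2 and 3 had Pdgfra-Cre;Esr1(fl/fl);R26Y, in which both Esr1 alleles are floxed. Pdgfra is a gene of mesenchymal cells, and Cre made from its promoter removes the floxed part of Esr1 and turns on the YFP of the R26Y reporter. Thus both groups share the Cre and the reporter, and the deletion is directed to cells that have used that promoter. Esr1 encodes estrogen receptor alpha, and the comparison asks how stromal cells differ when it is deleted in them.

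The oviduct is lined by ciliated cells and by secretory cells. Secretory cells are marked by the paired box factors PAX8 and PAX2 and release into the tubal fluid a mixture of glycoprotein, protease inhibitors and iron-binding proteins that coats the egg and embryo and guards against microbes. Several of these products respond to estrogen, and the epithelium exchanges signals with the stroma beneath it. None of the 10 genes is a defining gene of fibroblasts, although Clu, Slpi and Lcn2 are also made by other cell types.

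The promoters were read because the study deletes an estrogen receptor, and with the expression values already known. The receptor's classical binding element is a palindrome of GGTCA and TGACC around any 3 bases. Each arm thus reads GGTCA on its own strand. RefSeq promoter windows (GRCm38.p6) were available for 8 of the 10 genes, in 11 windows of 250 bases upstream of an annotated start. Sox17 and Clu had no window, and bases further upstream were not searched for any gene. Allowing at most 1 mismatch among the 10 fixed letters, the palindrome was found in the window of 1 gene, Ovgp1, with 1 mismatch. It lies at chr3:105973689-105973701, 113 bases before the RefSeq start and 22 bases before the GENCODE start. Of 32851 promoter windows of that length, 0.715% held such a match and 0.0639% held an exact one. The single arm GGTCA, searched on both strands and overlapping the palindrome, was in windows of Ovgp1, Ltf and Wfdc2 and in 35.2% of all windows. A match of letters is a description and was not tested for binding.

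Shown here are the sequences of Ovgp1, whose level had the widest range of the 10 over the libraries, of Pax8, which was also higher in 2 knockout-labelled libraries and whose window holds no match, and of Ltf, a gene known for its estrogen response in the uterus. Each runs 5′ to 3′ on the gene's strand, stops before both annotated starts and has the palindrome match and any GGTCA in capitals. The windows are chr3:105973552-105973710 (plus strand), chr2:24475600-24475849 (minus strand) and chr9:111019042-111019270 (plus strand).
Ovgp1: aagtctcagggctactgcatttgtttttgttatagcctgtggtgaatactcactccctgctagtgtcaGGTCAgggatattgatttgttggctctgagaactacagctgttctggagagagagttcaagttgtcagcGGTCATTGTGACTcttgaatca
Pax8: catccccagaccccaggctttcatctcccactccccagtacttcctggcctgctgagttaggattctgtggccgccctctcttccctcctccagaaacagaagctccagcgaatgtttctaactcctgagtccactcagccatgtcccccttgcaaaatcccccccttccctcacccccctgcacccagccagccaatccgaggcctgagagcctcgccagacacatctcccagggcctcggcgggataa
Ltf: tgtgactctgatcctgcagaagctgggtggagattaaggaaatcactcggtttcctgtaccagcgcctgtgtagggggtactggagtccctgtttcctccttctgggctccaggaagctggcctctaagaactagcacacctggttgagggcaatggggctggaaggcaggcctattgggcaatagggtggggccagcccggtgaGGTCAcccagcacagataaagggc

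Levels are in TPM, the length-scaled share of each gene in a library of 1000000, so levels of different genes can be compared. Between 15841 and 19432 genes reached 1 TPM per library. Esr1 itself was at 83.3 and 77.6 TPM in control mice 2 and 3 against 28.9, 85.0 and 169.9 TPM in mice 1, 2 and 3 labelled knockout. It lay below the controls in mouse 1 alone, so the gene-level value does not show the loss that the label names in mice 2 and 3. The floxed allele removes part of the gene, the table does not separate that part from the rest, and the groups are called by their labels throughout. Stromal markers were high: Dcn, a matrix proteoglycan of fibroblasts, was at 6764 to 10110 TPM. Of 12 epithelial markers, 12 were above 0 in every library, and their summed level was 1041 and 1156 TPM in the controls and 865, 1888 and 2495 TPM in knockout-labelled mice 1, 2 and 3. Across the genes tested, Spearman's rho was 0.966 between the controls and 0.969 between knockout-labelled mice 2 and 3. Mouse 1 stood at 0.954 with each control and at 0.956 and 0.944 with mice 2 and 3, apart from both pairs. The controls were less like the other knockout-labelled mice, at 0.944 and 0.945 with mouse 2 and 0.934 and 0.933 with mouse 3. Results are given with and without mouse 1. In bulk samples, fewer cells of a type and less RNA per cell cannot be told apart.

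Of the 10 secretory genes, 6 were at least 2 times the control mean in knockout-labelled mouse 2 and 5 in mouse 3, where 5.02% and 4.83% of all genes were. Ovgp1, Pax8, Pax2, Sox17 and Clu were so in both mice, and Lcn2 in mouse 2 but not in mouse 3. Slpi was at 0.537 and 0.629 times in mice 2 and 3. In mouse 1 the 10 genes ran from 0.398 times (Muc1) to 3.85 times (Lcn2). With all 5 libraries, 0 of 10 passed an adjusted p of 0.05 (limma), against 0.0259% of 19292 genes tested (0.0104% higher and 0.0156% lower). At an unadjusted p under 0.05, Lcn2 and Clu were higher and 0 were lower, against 3.7% and 9.87% of all genes. Quantile normalization moved the counts over all genes from 713 higher and 1904 lower to 1195 and 1378. It left 1 of the 10 genes higher, as did leaving out Rpph1 and Rn45s. When the library of knockout-labelled mouse 1 was left out, 5 were called higher (Ovgp1, Pax8, Pax2, Sox17 and Clu) and 1 lower (Slpi), against 5.35% and 2.63% of 19106 genes. The knockout-labelled libraries kept in that fit, mice 2 and 3, had Esr1 at 85.0 and 169.9 TPM, above both controls. The library left out was the only 1 with Esr1 below them. The median log2 fold change of the 10 genes was 0.73, beside -0.022 over all genes tested, and 0.97 and 0.028 without mouse 1.

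**Figure D1:**
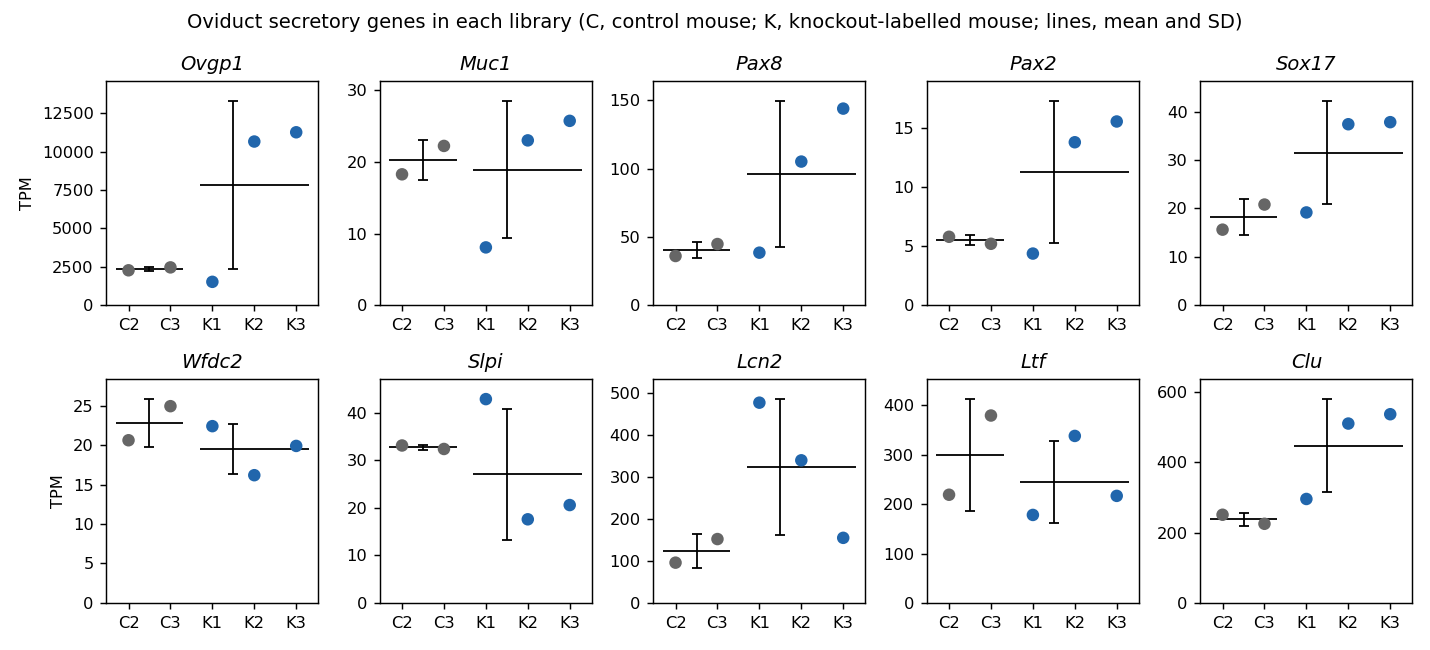
TPM of each secretory gene (vertical axes, linear from 0, scaled per gene) in control mice 2 and 3 (C2, C3, grey) and knockout-labelled mice 1, 2 and 3 (K1, K2, K3, blue), with horizontal lines at group means and bars of 1 SD. Ovgp1 stands at 10655 and 11258 TPM in K2 and K3 and at 1522 TPM in K1, while Slpi shows the opposite arrangement.

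Ovgp1 encodes oviductin, the chief glycoprotein of oviductal fluid and a relative of the chitinases, which binds the coat of the egg. It is the gene whose window, printed first among the sequences, holds the palindrome match. The gene lies at chr3:105973711-105987423 (plus strand, GENCODE M21, GRCm38). It was at 2273 and 2463 TPM in control mice 2 and 3 against 1522, 10655 and 11258 TPM in knockout-labelled mice 1, 2 and 3. Mice 2 and 3 stood at 4.50 and 4.75 times the control mean and mouse 1 at 0.643 times, so the groups overlapped and mouse 1 was the lowest library of all. Of all genes tested, 0.762% and 0.746% were at least 4 times the control mean in mice 2 and 3.

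In rank, Ovgp1 was the 36th and 30th most abundant gene of the controls, the 62nd in knockout-labelled mouse 1 and number 2 in mice 2 and 3. There it exceeded Dcn, at 6764 and 7024 TPM, and made up 1.07% and 1.13% of all TPM, against 0.227% and 0.246% in the controls. It held between 58.3% and 90.6% of the summed TPM of the 10 genes. The control mean was 2368 ± 134 TPM (SD, n = 2) and the mean of the knockout-labelled libraries 7812 ± 5455 TPM (SD, n = 3). On the log2(TPM + 1) scale, used for all fold changes here, the difference was 1.26 ± 0.85 (SE; limma, adjusted p 0.518). Without mouse 1 it was 2.21 ± 0.26 (SE; limma, adjusted p 0.0157).

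Muc1, at chr3:89229057-89233381, encodes a mucin anchored in the apical membrane of epithelial cells. Its level was 18.3 and 22.2 TPM in the controls and 8.07, 23.0 and 25.7 TPM in knockout-labelled mice 1, 2 and 3. Mouse 1 was the lowest, at 0.398 times the control mean, and mice 2 and 3 were above both controls by less than the controls differed from each other. Its log2 fold change was -0.23 ± 0.46 (SE; limma, adjusted p 0.821), and 0.26 without mouse 1 (adjusted p 0.325). Ovgp1 and Muc1 were both lowest in mouse 1, while mice 2 and 3 stood at 1.14 and 1.27 times the control mean for Muc1 against 4.50 and 4.75 times for Ovgp1.

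Pax8, at chr2:24420560-24475599, is a paired box factor that marks secretory cells and the Müllerian duct epithelium they come from. It was at 36.0 and 44.8 TPM in the controls, against 38.5, 105 and 144 TPM in knockout-labelled mice 1, 2 and 3. Mouse 1 lay between the controls, and mice 2 and 3 stood at 2.60 and 3.56 times the control mean. Over all libraries Pax8 differed by 1.04 ± 0.51 on the log2 scale (SE; limma, adjusted p 0.412), and by 1.59 ± 0.19 without mouse 1 (adjusted p 0.0161).

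Pax2, at chr19:44756045-44837871, is the paralog of Pax8 and acts with it in duct and kidney development. It was the least abundant of the 10, at 5.79 and 5.20 TPM in the controls and 4.37, 13.8 and 15.5 TPM in knockout-labelled mice 1, 2 and 3. Its order of libraries resembled that of Ovgp1, with mouse 1 below both controls and mice 2 and 3 above. For Pax2 the log2 fold change was 0.76 ± 0.48 (SE; limma, adjusted p 0.50), and 1.27 without mouse 1 (adjusted p 0.0246).

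Sox17, at chr1:4490931-4497354, is an SRY-box factor of oviductal and uterine epithelium that is also expressed in endothelium. Its level was 15.6 and 20.8 TPM in the controls and 19.2, 37.4 and 37.8 TPM in knockout-labelled mice 1, 2 and 3. Again mouse 1 lay between the controls, and mice 2 and 3 were near 2 times their mean (2.05 and 2.08). With all libraries the log2 fold change of Sox17 was 0.71 ± 0.32 (SE; limma, adjusted p 0.391), and 1.02 without mouse 1 (adjusted p 0.0297). The 9 endothelial markers summed to 220 and 269 TPM in the controls and to 194, 296 and 213 TPM in knockout-labelled mice 1, 2 and 3. The sum was above both controls in mouse 2 and below both in mouse 3, and the part of endothelial cells in the Sox17 values was not tested. Sox7, a related endothelial factor named here because of its values, had levels of 10.2 and 12.3 TPM in the controls and 8.47, 22.4 and 26.2 TPM in the others. Most of the 9 did not share this order. In mouse 2, 7 of the 9 lay above both controls, but in mouse 3 only Sox7 and Sox18 did, and 6 lay below both.

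The WAP-domain protease inhibitors Wfdc2 and Slpi were not higher in mice 2 and 3. Wfdc2, at chr2:164562413-164568510, encodes the secreted protein HE4, a WAP four-disulfide core protein. It was at 20.6 and 24.95 TPM in the controls, against 22.4, 16.2 and 19.9 TPM in knockout-labelled mice 1, 2 and 3. The range was narrow, and mice 2 and 3 lay just below both controls. The fitted log2 fold change of Wfdc2 was -0.22 ± 0.21 (SE; limma, adjusted p 0.627), and -0.32 without mouse 1 (adjusted p 0.277).

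Slpi, at chr2:164354070-164389095, encodes secretory leukocyte protease inhibitor, which blocks neutrophil elastase and protects mucosal surfaces. It was at 33.1 and 32.3 TPM in the controls, against 42.8, 17.6 and 20.6 TPM in knockout-labelled mice 1, 2 and 3. Mouse 1 was the highest library and mice 2 and 3 were the lowest, at 0.537 and 0.629 times the control mean. Fitted to all libraries, Slpi had a log2 fold change of -0.38 ± 0.36 (SE; limma, adjusted p 0.632), and of -0.75 ± 0.15 without mouse 1 (adjusted p 0.0378). Mesothelial markers, of a surface layer that can also express Slpi, summed to 726 and 618 TPM in the controls and to 355, 490 and 515 TPM in the knockout-labelled mice, below both controls in all 3. So did 5 of the 6 markers singly, while Wt1 went the other way. It was at 141 and 146 TPM in the controls, against 175, 218 and 223 TPM in mice 1, 2 and 3. The part of mesothelial cells in the Slpi values was not tested.

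Slpi and Wfdc2 lie on chromosome 2 with 173317 bases and 8 genes of the table between them. Of the 10 genes from Slpi to Wfdc2, 7 reached 1 TPM in all 5 libraries. The intervening genes were not low together: Sdc4, a membrane proteoglycan, was at 206 and 240 TPM in the controls, against 179, 160 and 171 TPM in knockout-labelled mice 1, 2 and 3. Pigt, a subunit of the enzyme that attaches glycolipid anchors, was at 158 and 131 TPM in the controls, against 111, 257 and 285 TPM in the others. These genes were looked at after the values of Slpi and Wfdc2 were seen.

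Lcn2 and Ltf encode iron-binding or siderophore-binding proteins of innate defence. Lcn2, at chr2:32384633-32388252, encodes lipocalin 2, which captures bacterial siderophores and is induced in inflammation. Its level was 96.0 and 152 TPM in the controls and 478, 340 and 155 TPM in knockout-labelled mice 1, 2 and 3. All 3 exceeded both controls, mouse 3 by a small margin, and mouse 1 was the highest at 3.85 times the control mean. Its log2 fold change was 1.27 ± 0.46 (SE; limma, unadjusted p 0.0292, adjusted p 0.330), and 0.92 without mouse 1 (adjusted p 0.181).

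Ltf, at chr9:111019271-111042767, encodes lactoferrin, an iron-binding antimicrobial protein of secretions and neutrophil granules. It was at 219 and 380 TPM in the controls, against 178, 338 and 217 TPM in knockout-labelled mice 1, 2 and 3. The controls differed 1.73-fold, and the groups overlapped. With a log2 fold change of -0.29 ± 0.34 (SE; limma, adjusted p 0.694), no difference between the groups was detectable, and the value was 0.10 without control mouse 3 (adjusted p 0.974) and -0.090 without knockout-labelled mouse 1 (adjusted p 0.866).

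Lcn2 and Ltf are also neutrophil genes. The 9 neutrophil markers summed to 287 and 429 TPM in the controls and to 67.2, 140 and 51.3 TPM in knockout-labelled mice 1, 2 and 3, and 0 of the 9 were at 0 in any library. S100a8, the most abundant of them, was at 194 and 242 TPM in the controls, against 31.6, 99.5 and 29.97 TPM in the others. With all libraries, 8 of the 9 had a log2 fold change below 0. Camp did not follow the sum, with a log2 fold change of 0.017 ± 0.25 (SE). It stood at 1.14, 0.83 and 1.09 times the control mean in knockout-labelled mice 1, 2 and 3. Macrophage markers summed to 2175 and 2769 TPM in the controls and to 1678, 1059 and 753 TPM in knockout-labelled mice 1, 2 and 3. The part of these cells in the Lcn2 and Ltf values was not tested.

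Clu, at chr14:65968483-65981547, encodes clusterin, an extracellular chaperone made by secretory epithelium and by many other cells. It was at 251 and 225 TPM in the controls, against 295, 510 and 536 TPM in knockout-labelled mice 1, 2 and 3. The groups did not overlap, and mouse 1 was nearest to the controls at 1.24 times their mean. Clu had a log2 fold change of 0.86 ± 0.28 (SE; limma, unadjusted p 0.0194, adjusted p 0.297), and 1.14 without mouse 1 (adjusted p 0.0140). Clu and Lcn2 were the 2 genes of the 10 whose groups separated with the knockout-labelled libraries higher, against 11.9% of all genes tested, and 0 separated in the other direction, against 21.9%.

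**Figure D2:**
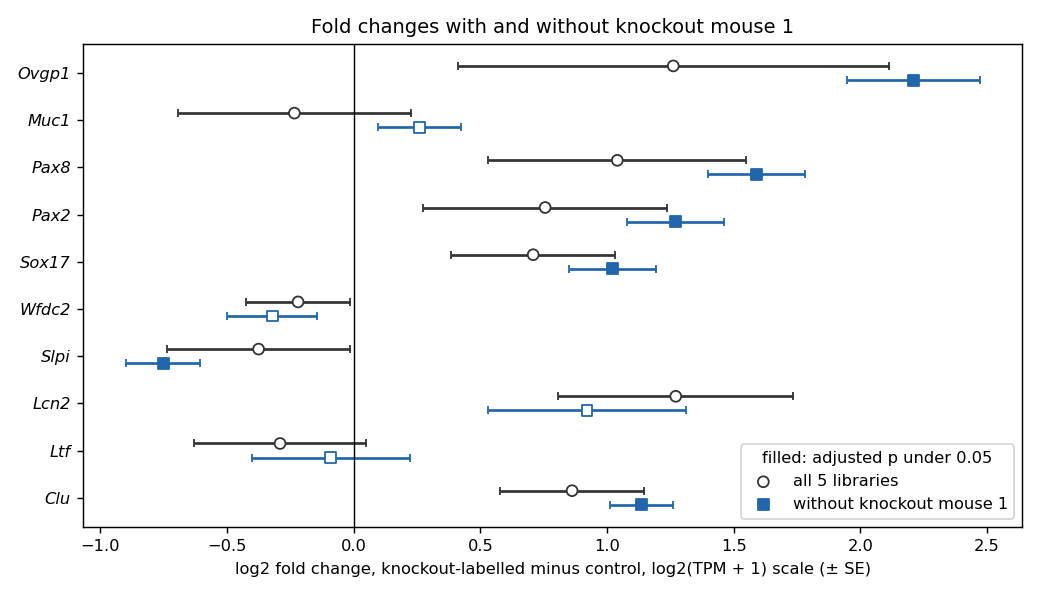
Log2 fold change (horizontal axis, knockout-labelled minus control, log2(TPM + 1) scale, bars of 1 SE) of each gene with all 5 libraries (circles) and without knockout-labelled mouse 1 (squares), filled where the adjusted p was under 0.05. No circle is filled, whereas the squares of Ovgp1, Pax8, Pax2, Sox17, Slpi and Clu are. The squares compare the controls with mice 2 and 3, in which Esr1 was not below the controls.

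In the order of control means, Ovgp1 at 2368 ± 134 TPM (SD, n = 2) stood far above Ltf (299 ± 113) and Clu (238 ± 18.2). The latter 2 did not differ beyond the spread of Ltf, and their order was opposite in the 2 controls. Lcn2 (124 ± 39.8) and Pax8 (40.4 ± 6.19) followed, then Slpi (32.7 ± 0.518). Wfdc2 (22.8 ± 3.06), Muc1 (20.3 ± 2.80) and Sox17 (18.2 ± 3.67) came next, where Muc1 differed from each of the other two by less than their SDs over mice, although both controls had the genes in this same order. Pax2 (5.49 ± 0.419) was lowest. By the mean over the 3 knockout-labelled libraries the order changed: Clu (447 ± 132), Lcn2 (324 ± 162) and Ltf (244 ± 83.5) came after Ovgp1, with spreads that overlap.

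The patterns of the 10 genes over the 5 libraries were compared by the root mean square difference between log2(TPM + 1) profiles centred on their means, where 0 is an identical pattern. The closest pairs were Clu and Sox17 (0.19), and Pax2 and Pax8 (0.22), the paralogs. Slpi and Wfdc2 were also close (0.33). Ovgp1 and Slpi were the farthest apart (1.66), followed by Ovgp1 and Lcn2 (1.48). Among 12607 other genes with a mean of at least 5 TPM, those most like Ovgp1 were Ppp1r14d (0.091), Gulo (0.19), Atp13a5 (0.20), Creb3l4 (0.20) and Thrsp (0.20). Ppp1r14d, a phosphatase inhibitor gene, was at 6.25 and 7.30 TPM in the controls, against 4.71, 35.2 and 41.1 TPM in knockout-labelled mice 1, 2 and 3. Those most like Pax8 were Cldn2 (0.065), a tight junction protein, Hook1 (0.071), Ehf (0.084), an epithelial transcription factor, Car2 (0.091), a carbonic anhydrase, and Gna14 (0.11). With 5 libraries, such likeness is a description of these samples.

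Because epithelial RNA differed between libraries, each gene was also expressed as a percentage of the summed TPM of 12 epithelial markers, a measure chosen after the values were seen. Ovgp1 was at 218% and 213% of that sum in the controls and at 176%, 564% and 451% in knockout-labelled mice 1, 2 and 3. In mice 2 and 3 this was 2.62 and 2.09 times the control mean, against 4.50 and 4.75 times in plain TPM. Pax8 was at 3.46% and 3.88% in the controls and 4.45%, 5.57% and 5.77% in the others, above both controls in 3 of 3 libraries. Relative to the epithelial sum, Sox17 stood at 1.34, 1.20 and 0.919 times the control mean in mice 1, 2 and 3. Clu stood at 1.57, 1.24 and 0.987 times, so both were highest in mouse 1. Pax2 stood at 1.00, 1.45 and 1.24 times.

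On the same measure Slpi lay furthest of the 10 below the control mean in mice 2 and 3, at 3.18% and 2.80% of the epithelial sum in the controls and 4.95%, 0.931% and 0.824% in knockout-labelled mice 1, 2 and 3. Wfdc2 was at 1.98% and 2.16% in the controls and 2.59%, 0.858% and 0.798% in the others. Muc1 was lower than both controls in all 3, at 1.76% and 1.92% against 0.933%, 1.22% and 1.03%, and so was Ltf, at 21.1% and 32.8% against 20.6%, 17.9% and 8.69%. On this measure 23.1% of all genes tested were below both controls in all 3, and 1.24% were above both, as Pax8 was. Lcn2 was at 9.23% and 13.2% in the controls and 55.2%, 18.0% and 6.22% in the others. In exact permutation tests of the 10 ratios over the 10 assignments of the libraries (two-sided, smallest possible p 0.1), Muc1 reached 0.1, the smallest p, Ovgp1 0.4, and Pax8 and Ltf 0.2 each, and the lowest Benjamini-Hochberg adjusted p over the 10 was 0.444. The design cannot reach 0.05 in this test.

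**Figure D3:**
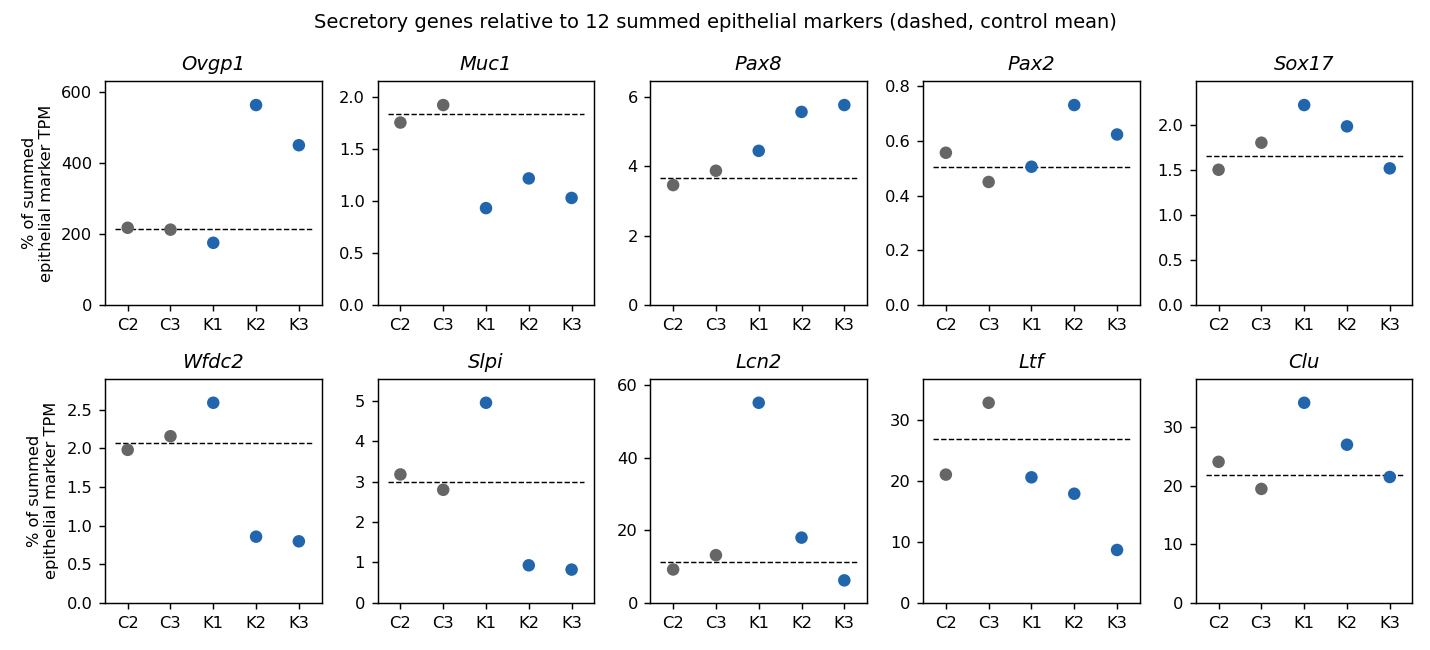
Each secretory gene as a percentage of the summed TPM of 12 epithelial markers (vertical axes, linear from 0, scaled per gene) in control mice (C2, C3, grey) and knockout-labelled mice (K1, K2, K3, blue), with a dashed line at the control mean. Ovgp1 remains above the line in K2 and K3 (564% and 451%), Slpi and Wfdc2 lie below it there, and Lcn2 is highest in K1 (55.2%).

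A further list of genes of oviduct secretory epithelium gave no common direction. Of 14 listed genes, 13 were tested and Muc16 was not analysed here. With all 5 libraries 0 passed (limma; 0 higher and 3 lower at an unadjusted p under 0.05), and the median log2 fold change was 0.0010 with 7 higher and 6 lower. The 3 were Sprr2f, Bcam and Spp1. Sprr2f was at 8.24 and 3.40 TPM in the controls, against 1.67, 0.779 and 1.20 TPM in knockout-labelled mice 1, 2 and 3. Bcam was at 166 and 160 TPM, against 77.9, 118 and 104 TPM. Without knockout-labelled mouse 1, 4 passed as higher (Elf3, Fut2, Sox9 and Prom1) and 2 as lower (Spp1 and Bcam), against 5.35% and 2.63% of all genes tested. Elf3, an epithelial transcription factor, was at 33.7 and 29.98 TPM in the controls, against 24.0, 84.0 and 116 TPM in mice 1, 2 and 3, in the order seen for Pax2. C3, the central complement component and the most abundant of the list, was at 3813 and 3435 TPM in the controls, against 5502, 2848 and 3032 TPM in mice 1, 2 and 3. Mouse 1 was its highest library and mice 2 and 3 its lowest, as for Slpi. C3 exceeded the summed epithelial markers in every library, also in mouse 1, where that sum was lowest (865 TPM). Which cells of the sorted fraction gave the C3 values was not tested. Emx2, a homeobox factor of the Müllerian duct, ranged from 58.1 to 71.6 TPM over the 5 libraries.

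Epithelial and ciliated genes were followed beside the secretory ones. Of 12 epithelial markers, 0 passed with all libraries (limma; also 0 at an unadjusted p under 0.05), and 8 passed as higher and 0 as lower without knockout-labelled mouse 1, where 5.35% and 2.63% of all genes tested did. Their median ratio to the control mean was 0.861, 1.74 and 2.11 in mice 1, 2 and 3, against 0.968, 2.10 and 1.67 for the 10 secretory genes. Krt19, a keratin of simple epithelium, was at 268 and 228 TPM in the controls, against 135, 330 and 545 TPM in the others, and Epcam, an epithelial adhesion molecule, at 75.7 and 99.3 TPM and at 70.8, 152 and 218 TPM. Of 12 ciliated cell markers, 0 passed with all libraries (limma; 1 higher and 1 lower at an unadjusted p under 0.05) and 1, Dynlrb2, passed as higher without mouse 1, and the median ratios were 0.813, 1.53 and 1.38. In mice 2 and 3, 10 and 8 of the 12 ciliated markers lay above both controls, and 8 of 12 lay below both in mouse 1. Foxj1, the master transcription factor of motile cilia, was at 63.1 and 78.8 TPM in the controls, against 67.9, 149 and 100.3 TPM in the others. Dynlrb2, a dynein light chain, was at 75.0 and 103.5 TPM in the controls, against 126, 156 and 204 TPM. Cfap126, a protein of cilia, was at 72.4 and 106 TPM, against 72.3, 191 and 141 TPM. Tppp3, a tubulin-binding protein of ciliated cells and the most abundant of the list, was at 184 and 170 TPM in the controls, against 134, 185 and 168 TPM in the others. Ccno and Mcidas of the same list went the other way, below both controls in mice 1, 2 and 3. Ccno was at 5.06 and 7.26 TPM in the controls, against 2.64, 3.19 and 3.35 TPM. Mcidas was at 1.98 and 2.19 TPM, against 0.935, 1.36 and 0.859 TPM. Whether the secretory genes changed more than the ciliated genes was not tested.

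Stromal markers, which the sort should hold, were lower in sum in the knockout-labelled libraries, though not for each gene. The 9 stromal markers summed to 24928 and 20124 TPM in the controls and to 17168, 13152 and 15199 TPM in knockout-labelled mice 1, 2 and 3. With all libraries 0 of 9 were called (limma, with 0 higher and 5 lower at an unadjusted p under 0.05). Without mouse 1, 2 were called lower (Lum and Dpt), against 2.63% of all genes tested. Pdgfra and Vim were the 2 with fold changes above 0. Pdgfra was at 225 and 188 TPM in the controls, against 298, 231 and 165 TPM in mice 1, 2 and 3. Vim was at 1337 and 1066 TPM, against 1149, 1301 and 1382 TPM. The part of cell composition in the secretory gene values was not tested.

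**Figure D4:**
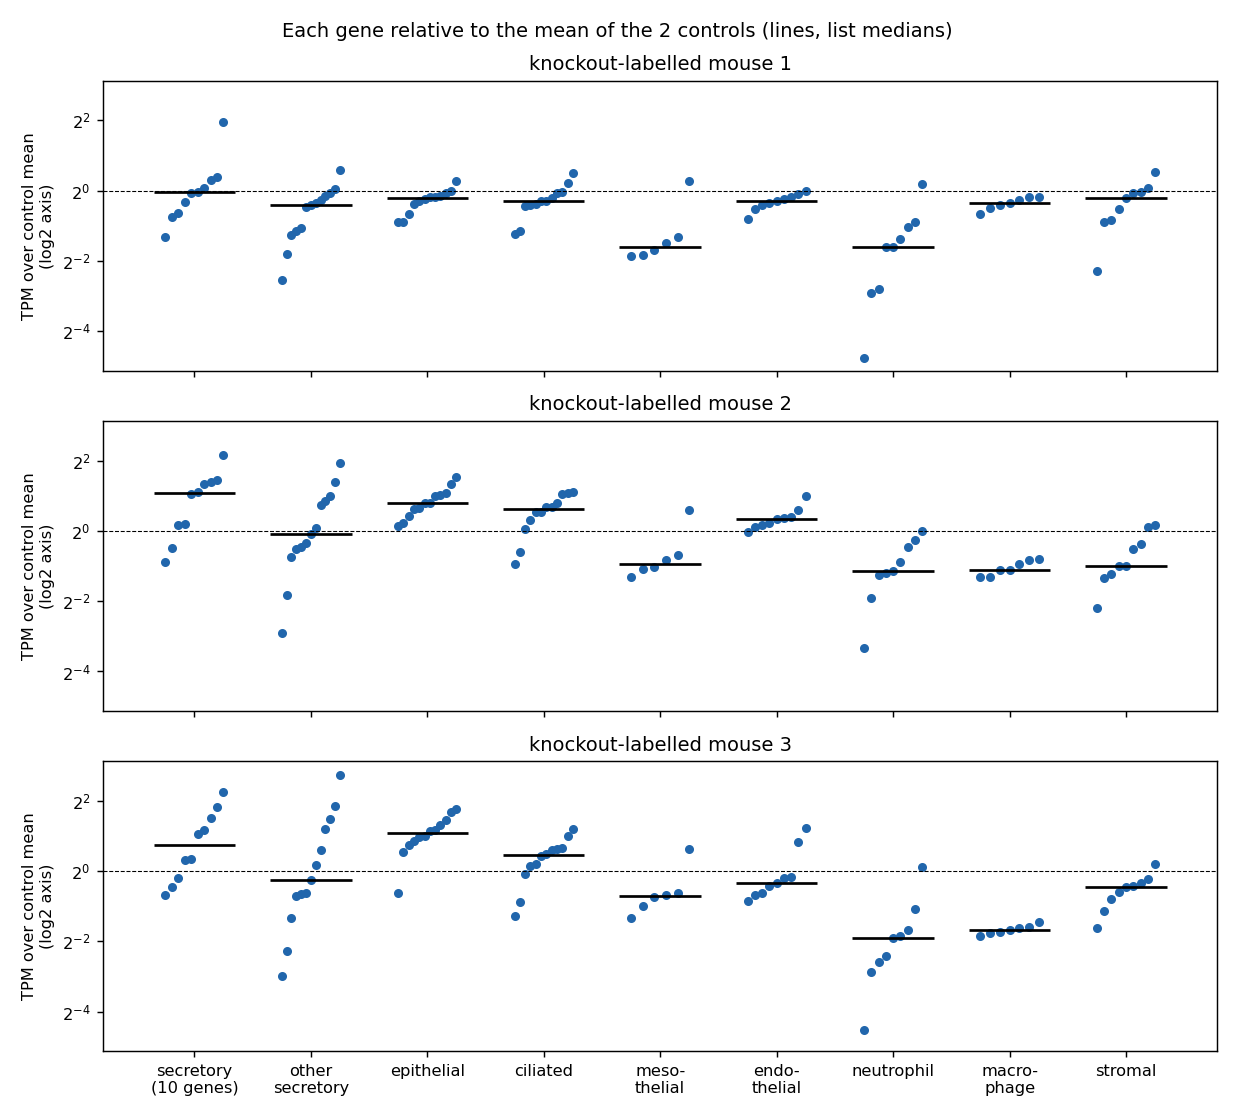
TPM of each gene divided by the mean of the 2 controls (vertical axes, log2 scale), by gene list (horizontal axis) for knockout-labelled mice 1, 2 and 3 in 3 panels, with lines at list medians. The secretory genes spread widely in every panel, with medians of 0.968, 2.10 and 1.67, and the epithelial markers have medians of 0.861, 1.74 and 2.11.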

How the data were processed

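The deposited values are TPM per gene in 1 table, 1 column per mouse. The authors aligned reads with STAR, per the name of the deposited table, to mm10, per the submitters' processing notes. The counter, the annotation and the read filters are not given in the sources used here. Per the labels' protocols, total RNA of sorted cells was made into libraries with a low-input SMARTer kit. TPM sum to 1000000 in each library, keep no read depth, and fall for other genes when 1 gene takes more. Rpph1 alone held 18.6% and 21.3% of TPM in control mice 2 and 3. Its share was 22.3%, 14.3% and 13.1% in knockout-labelled mice 1, 2 and 3. The steps between low values did not give a unique relative depth, so no counting interval is given.

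The log2(TPM + 1) values were modelled on genotype by limma (version 3.58.1, R 4.3.3, eBayes with trend), over genes with at least 1 TPM in at least 2 libraries, with Benjamini-Hochberg adjustment over all 19292 tested genes and a threshold of 0.05. Tests were two-sided. On this scale fold changes of low genes are understated. The labels name 1 mouse per library, and p-values measure the spread between these 5 mice. Mouse numbers were not used to pair libraries in the main fit. For the 2 shared numbers, deviations from the group means correlated at -0.060 and -0.072. With 2 controls their deviations mirror each other, so these values are not independent and cannot decide whether libraries were paired.

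Named were all 10 genes, list genes that passed, up to 4 abundant genes per list, and the 5 genes nearest to Ovgp1 and to Pax8. Some list genes were also named for their values, among them Sox7, Sox18, Camp, Ccno, Mcidas and Sprr2f. The members and lists were chosen with earlier results of these data known. Promoters are from RefSeq (GRCm38.p6) and gene positions from GENCODE M21, read with Python 3.11.15.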

Additional observations from a re-analysis of the deposited data

How the results depend on the processing

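All alternatives were marked as planned, though the genes were chosen with earlier results of these data known. Of 130 alternative values for the 10 genes, 113 kept both sign and call, 13 newly passed the threshold and 4 changed sign. The calls depend on knockout-labelled mouse 1: with each of the 5 libraries left out in turn (where 1 control remained it was assumed to vary like the other group), genes of the 10 called higher ranged from 0 to 5 and called lower from 0 to 1, and the high values came without that mouse. In the same fits the log2 fold change ran from 0.77 to 2.21 for Ovgp1, 0.65 to 1.59 for Pax8, 0.46 to 1.27 for Pax2, 0.51 to 1.02 for Sox17, 0.71 to 1.14 for Clu, -0.75 to -0.13 for Slpi, -0.35 to -0.088 for Wfdc2, 0.92 to 1.73 for Lcn2, -0.52 to 0.26 for Muc1 and -0.69 to 0.10 for Ltf. The median of the 10 ran from 0.50 to 0.97. Muc1 was 0.26 without knockout-labelled mouse 1, and Ltf was 0.10 without control mouse 3.

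The mouse number as a replicate block gave 5 higher and 1 lower of the 10 (Ovgp1 2.21, Pax8 1.59, Pax2 1.27, Sox17 1.02, Clu 1.14, Slpi -0.75) and a Muc1 log2 fold change of 0.26. Mouse 1 has no partner there, so its fold changes equal those without it by construction. The libraries share only a number. Library weights called 1 of the 10, Clu (1.03), and gave Muc1 0.062.

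Over all genes, the 2 higher and 3 lower calls became 1165 and 693 with the block, 260 and 396 with library weights, 14 and 22 at a threshold of 0.1, and 0 and 0 with a pseudocount of 0.1 (715 and 1518 at an unadjusted p under 0.05, limma) or a mean of at least 5 TPM (643 and 746). The higher calls were 1 with no filter and 0 with quantile normalization (1195 at an unadjusted p) or eBayes without trend (555), and the lower calls 5 without Rpph1 and Rn45s. Leaving out each library gave 0 to 1022 higher and 0 to 502 lower. The cause was not tested. Read depth cannot be given for TPM, and with 2 controls the spread of the controls is known poorly.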
